A study of Mus musculus with 12 samples.

Results

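The mRNAs of ribosome biogenesis factors, the proteins that make, cut, modify and assemble ribosomal RNA, were followed between the gradient pools of 4T1 cells with and without METTL7A1. The genes were chosen by symbol. They were those whose names begin with Utp, Nop, Nol, Rrp or Exosc and a digit or with Polr1, together with Ncl, Fbl, Bop1, Pes1, Rrs1, Imp3, Imp4, Mphosph10 and Nolc1, without pseudogenes. The count file listed 60 such genes among 55376. Of the 60, 57 reached at least 1 CPM (the count scaled to library size) in at least 3 libraries and were tested, as were 12224 genes in all. Exosc6, Nol3 and Nol4 did not pass that filter. Nol3, Nol4 and Nol4l carry a matching name, but their products are not known to act in ribosome synthesis. Nol4l was the only 1 of these 3 that was tested.

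The study asked how METTL7A1, a putative methyltransferase, acts on translation, and sequenced RNA from pooled fractions of sucrose gradients. 4T1 cells, a mouse mammary carcinoma line, carried, by stable transfection, either the empty vector (mock) or a plasmid that expresses FLAG-tagged full-length Mettl7a1 cDNA from a CMV promoter, and both were kept under G418 selection. Whether either line was a single clone or a pool of transfectants is not given in the sources used here. All cells received cycloheximide at 0.1 mg/ml for 5 min before lysis, which holds ribosomes on mRNA. The sub-polysomal pool joined fractions 3 to 7 of the gradient, and the polysomal pool fractions 8 to 11. This gave 4 groups of 3 libraries, with mock replicates labelled A, B and C and METTL7A1 replicates D, E and F. The study describes its polysome profiles as drawn from separate runs on biological replicates, but the labels of the libraries do not say which cultures they came from. The p-values measure the spread between these samples. Each genotype is 1 transfected line, so an effect of METTL7A1 and other differences between the lines cannot be told apart.

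Ribosome synthesis begins in the nucleolus, where RNA polymerase I transcribes the ribosomal RNA precursor. Small nucleolar ribonucleoproteins (snoRNPs) guide the modification of its bases and sugars, the small subunit processome folds and cuts the part that becomes the small subunit, other factors assemble the large subunit, and the RNA exosome trims and degrades the spacers. Growing tumour cells make ribosomes at a high rate, and the transcription factor Myc is known to raise the mRNAs of many of these proteins. On a sucrose gradient an mRNA that carries several ribosomes sediments with the polysomes, and a longer coding sequence has room for more of them.

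The libraries differed in depth. Total counts were 1817520, 3608679 and 5738989 in mock sub-polysomal replicates A, B and C, and ran from 5966935 to 6966156 in the mock polysomal libraries. The METTL7A1 libraries held 3670942 to 5171156 counts in the sub-polysomal and 5358491 to 6890725 in the polysomal pool. At these depths 3 counts correspond to between 0.372 and 1.69 CPM, a limit that covers counting error only. The epithelial markers Krt8, Krt18, Epcam, Cdh1 and Krt14 had counts in all 12 libraries (56 to 13694). Of 9 markers of leukocytes, endothelium, fibroblasts and adipocytes, 5 to 8 were at 0 in each library. Their summed counts were 20 to 63 in the mock and 49 to 170 in the METTL7A1 libraries, of which Cd68, the most abundant, made up 20 to 63 and 46 to 167. Cd3e, Col3a1 and Pdgfrb were at 0 in all 12, and Ptprc had 1 count in 1 library. Cdh5 was at 0 in every mock library and had 1 to 4 counts in every METTL7A1 library. Cd68 rose in METTL7A1 cells by a log2 of 0.80 (SE 0.27, adjusted p = 0.03285) in sub-polysomal and 1.56 (SE 0.23, adjusted p = 0.00011) in polysomal RNA. With GC offsets the former was 0.70 (adjusted p = 0.0521) and the latter 1.55 (adjusted p = 4.2e-05). The part of Cd68 in the results below was not tested.

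The pools and genotypes were told apart by transcripts outside the list. Mitochondrial transcripts, which cytoplasmic ribosomes do not translate, held 4.37% to 8.49% of all counts of the sub-polysomal and 0.684% to 2.14% of those of the polysomal libraries. Mettl7a1 was at 2.82, 1.26 and 3.15 CPM in mock and at 394, 284 and 236 CPM in METTL7A1 sub-polysomal RNA. In polysomal RNA it was at 3.27, 3.02 and 2.85 CPM in mock and at 308, 312 and 273 CPM in METTL7A1 cells. No library of either genotype came near the other. The biogenesis factors together took 0.496% to 0.665% of the counts of the sub-polysomal and 0.798% to 0.919% of those of the polysomal libraries. On the scale of normalised CPM, used for all levels below, the pools were closer. The summed CPM of the factors was 6799 to 7016 in mock sub-polysomal and 6796 to 7478 in mock polysomal libraries, which overlap, and 6119.9 to 6657 against 7192 to 7853 in METTL7A1 cells, which do not.

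A trend with GC content ran along with genotype in the sub-polysomal pool. In each library, each gene's deviation from its mean over all libraries was ranked against the GC content of the gene across 12157 genes. The Spearman correlation was 0.441, 0.348 and 0.179 in METTL7A1 sub-polysomal replicates D, E and F, and -0.227, 0.139 and -0.159 in mock sub-polysomal replicates A, B and C. Polysomal libraries had values of -0.222, -0.366 and -0.0308 in mock and of -0.168, -0.022 and -0.154 in METTL7A1 cells. GC-rich genes were thus relatively high in the METTL7A1 sub-polysomal libraries. Counts of calls between the genotypes in sub-polysomal RNA, and the calls of most members named there, are therefore given also with offsets that take out each library's trend with GC content.

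Levels can be compared between genes only per length, here as CPM per kb of the summed exons of all annotated transcripts, averaged over the 12 libraries. On that scale Nop56 (243), Polr1d (215), Nop10 (153), Ncl (132) and Rrp9 (129) had the highest levels of the 57 in the mean of the 4 groups. Fbl (112), Imp3 (111), Nop16 (105) and Rrp1 (103) followed. Utp14b (0.569) and Nol4l (0.198) had the lowest. The order differed between the groups. Polr1d led in mock sub-polysomal RNA (359.7, with Nop56 at 236) and Nop10 in METTL7A1 sub-polysomal RNA (306, with Polr1d at 283, Rrp9 at 216 and Nop56 at 179). Nop56 and then Ncl led in polysomal RNA of mock (232 and 174) and of METTL7A1 cells (326 and 182). The annotation gives Ncl and Nop58 summed exons of 8.202 and 9.539 kb, which lowers their level per length. snoRNA genes lie within the bounds of 4 of the 57 genes, namely Nop56 (5), Nop58 (4), Ncl (3) and Nop53 (1).

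In mock cells more of the factor mRNAs were enriched in polysomes than depleted from them. Among called members with a mean of at least 5 CPM, Pes1, Nol6, Rrp1 and Bop1 rose most in polysomal over sub-polysomal RNA. Polr1d, Nop10, Exosc1 and Nol12 fell most. Nol4l, below that level, had a larger rise that was not called (1.13, adjusted p = 0.0691). With edgeR's quasi-likelihood test and an adjusted p below 0.05, 20 of 57 members (35.1%) were higher in polysomal RNA, where 23.3% of all genes tested were. Lower were 9 members (15.8%), against 23.7% of all genes. The median log2 change was 0.17 over the members and 0.05 over all genes. A stricter rule asked for an adjusted p below 0.01 and more than 1.5 on the log2 scale in either direction. The study states it for METTL7A1 against mock cells in total RNA, and it is applied here to the pools as well. By this rule edgeR called 7.55% of all genes and 0 members. With no limit on the change, 32 members had an unadjusted p below 0.05 (21 or 36.8% higher and 11 or 19.3% lower, against 27.4% and 26.7% of all genes). DESeq2 and limma-voom each called 1 by the stricter rule, Polr1d, whose edgeR log2 change of -1.47 lay just inside the limit. The shares of all genes that DESeq2 and limma-voom called by that rule were not taken in any comparison. The count of higher members was 11 (19.3%) without mock replicate C, near the 19.1% of all genes in that fit. Scaled to the Actb count of each library, which moved the median of all genes to -0.02, 12 members (21.1%, against 17% of all genes) were higher and 10 (17.5%, against 23.5%) lower. The offsets for GC content gave 21 (36.8%, against 25.8%) higher and 12 (21.1%, against 24.9%) lower.

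The same direction held in METTL7A1 cells for most of these mRNAs. Ncl, Utp6, Utp20 and Nop14 rose most, and Nop10, Polr1d, Exosc4 and Exosc1 fell most. Of the 57, 25 (43.9%) were higher in polysomal RNA, against 30.0% of all genes, and 9 (15.8%) were lower, against 29.3%. The median log2 change was 0.20 over the members and 0.06 over all genes. The stricter rule called Ncl higher, where it called 1.76% of all genes, and Nop10 and Polr1d lower, where it called 10.3%. Without mock replicate A, which is in neither of these groups but is in the fit, 14 members (24.6%, against 30.9%) were lower. Actb scaling took the median of all genes to -0.18 and gave 18 members (31.6%, against 17.5%) higher and 16 (28.1%, against 34.6%) lower. The log2 change of Ncl was then 1.33, and 1.29 with GC offsets, both short of the stricter limit. Those offsets gave 28 members (49.1%, against 31% of all genes) higher and 12 (21.1%, against 27.8%) lower.

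The genotypes share no library in these comparisons, so their calls can be set beside each other. Higher in both were 16 members, 80% of those higher in mock and 64% of those higher in METTL7A1 cells, where the shares over all genes were 81.5% and 63.3%. Of these 16, Rrp1b lost its METTL7A1 call in 12 of the alternative fits, among them DESeq2 (adjusted p = 0.08175), and its mock call in 3. Mock calls were also lost for Utp4 and Nop14 in 4 fits each, for Nop2 and Nolc1 in 3 each and for Ncl, Nol8, Utp18 and Utp20 in 1 each, and METTL7A1 calls for Nol8 and Rrp12 in 1 each. Lower in both were 8, 88.9% of the calls of either genotype, against 86.7% of the mock and 70.2% of the METTL7A1 calls of all genes. Called in opposite directions were 0 members and 0.115% of all genes. The 8 were Exosc1, Exosc4, Nol12, Nol7, Nop10, Polr1d, Rrp15 and Rrp9. The Rrp15 call was lost in 4 of the alternative fits in each genotype, that of Nol7 in 3 in METTL7A1 cells and that of Exosc4 in 2 in mock cells. In mock cells alone 5 (8.77%, against 7.35% of all genes) were called (Bop1, Nol6, Nop9, Polr1a and Rrp8), and in METTL7A1 cells alone 10 (17.5%, against 19.6%) (Exosc5, Exosc7, Mphosph10, Nop56, Nop58, Rrs1, Utp11, Utp14a, Utp14b and Utp3). Of the 5, the calls of Nop9, Polr1a and Rrp8 were each lost in 3 to 5 of the alternative fits. Bop1 (0.66, adjusted p = 0.000626), Nol6 (0.60, 0.00152) and Nop9 (0.45, 0.00417) were also called higher between the METTL7A1 pools with GC offsets. Of the 10, that of Utp14b was lost in 6, that of Utp14a in 2 and those of Exosc7, Rrs1 and Utp11 with Actb scaling. A call in 1 genotype is no test of a difference between them, and that test is given with the shift to polysomes. Called in neither were 18 (31.6%, against 33.4%), among them Fbl, Imp3 and Imp4.

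**Figure D1:**
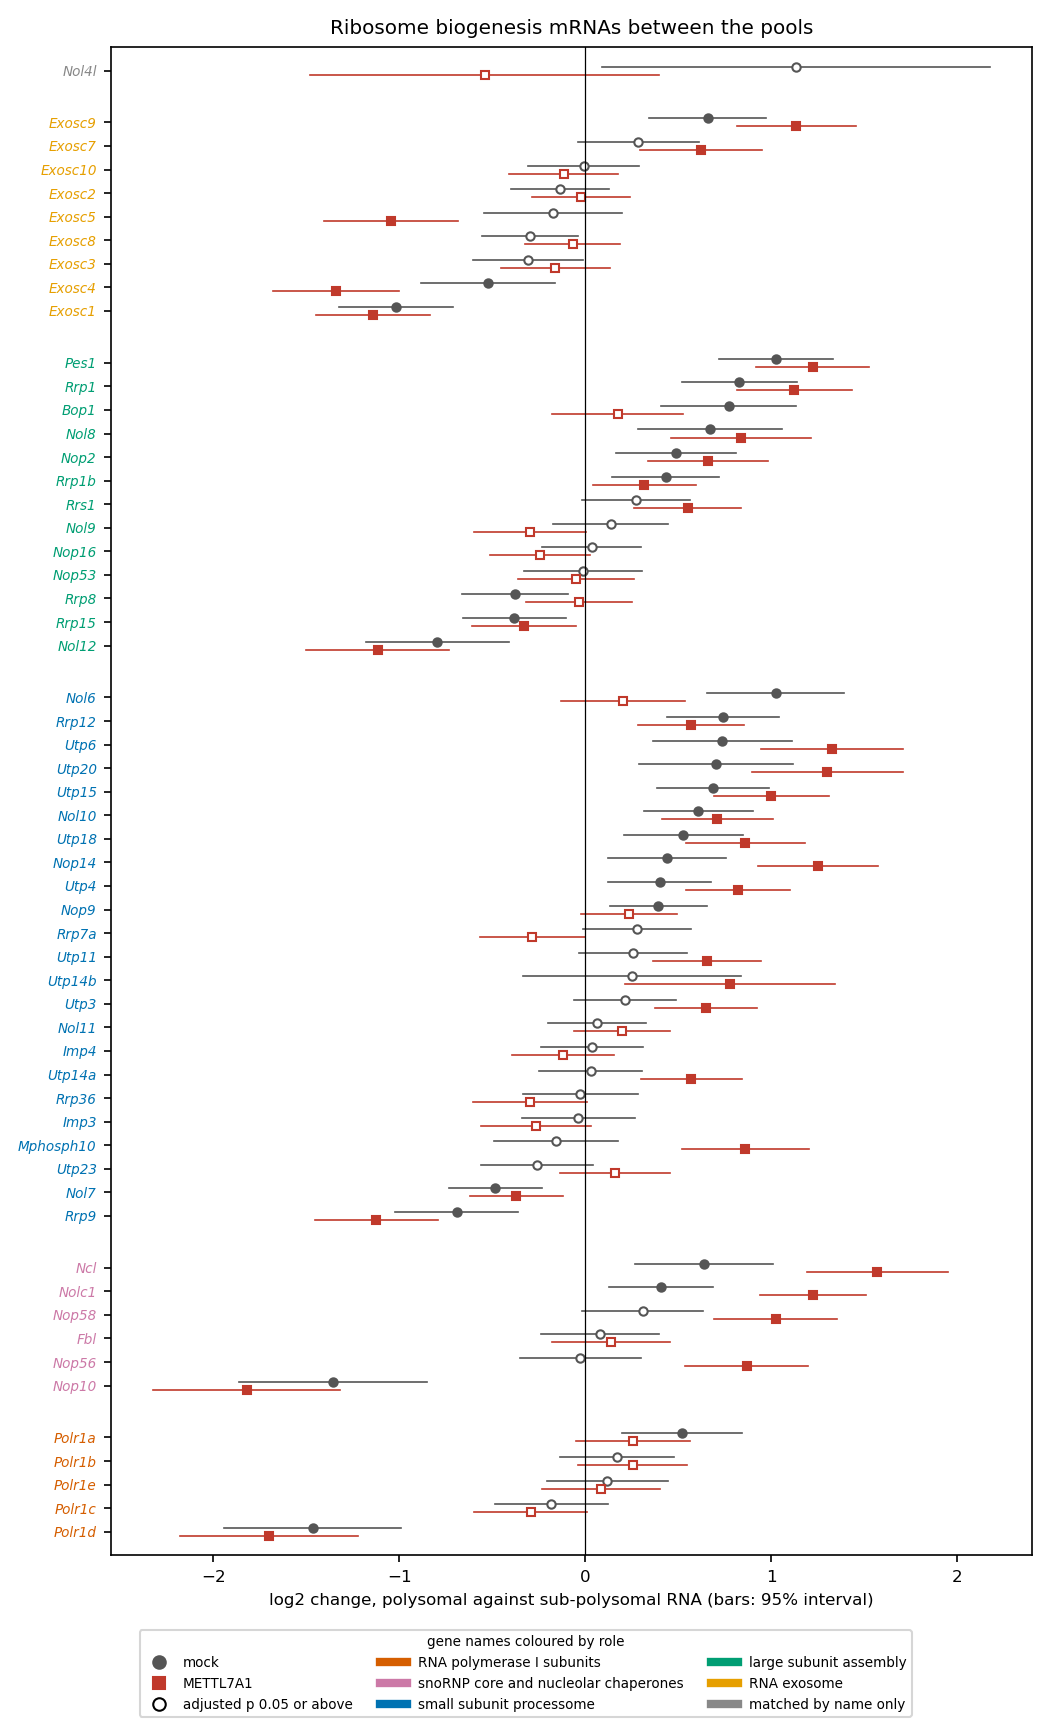
The log2 change between the pools, polysomal over sub-polysomal (x axis), is plotted for each of the 57 members, grouped by role, in mock and METTL7A1 cells, with 95% confidence intervals and filled symbols where the adjusted p was below 0.05. Nop10 and Polr1d lie farthest to the left in both genotypes, and Ncl lies farthest to the right in METTL7A1 cells.

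More members differed between METTL7A1 and mock cells in the sub-polysomal than in the polysomal pool. These comparisons share libraries with those between the pools, so values are given side by side. Among called members with a mean of at least 5 CPM, Exosc4, Bop1, Nol6 and Nop10 rose most in the sub-polysomal pool. Mphosph10, Ncl, Nolc1 and Nop14 fell most. Nol4l, below that level, had a log2 change of 1.001 that was not called (adjusted p = 0.181). In sub-polysomal RNA 10 members (17.5%) were higher in METTL7A1 cells, against 16.9% of all genes, and 13 (22.8%) were lower, against 14.5%. The share of higher members is thus near that of all genes. The median log2 change was -0.10 over the members and 0.00 over all genes. By the stricter rule edgeR called 2.76% of all genes, and edgeR, DESeq2 and limma-voom each called 0 members. At an unadjusted p below 0.05 by edgeR, 12 members (21.1%, against 22.1% of all genes) were higher and 17 (29.8%, against 20.1%) lower. The count of lower members was 6 (10.5%, against 8.73%) without METTL7A1 replicate E and 8 (14%, against 11.4%) without replicate F. Actb scaling moved the median of all genes to 0.26 and gave 16 members (28.1%, against 26.9% of all genes) higher and 3 (5.26%, against 5.46%) lower, so the split by direction depends on the scaling.

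In polysomal RNA few members differed between the genotypes. Nop56 and Rrp1 were higher in METTL7A1 cells, 2 of 57 (3.51%) against 9.69% of all genes, and Nop16 was lower, 1 of 57 (1.75%) against 8.28%. The median log2 change was 0.07 over the members and -0.01 over all genes. By the stricter rule edgeR called 2.13% of all genes, and edgeR, DESeq2 and limma-voom each called 0 members. At an unadjusted p below 0.05 by edgeR, 8 (14%, against 16.1% of all genes) were higher and 3 (5.26%, against 15.1%) lower. The calls of Nop56, Rrp1 and Nop16 did not hold in every fit, although the changes stayed near their main values. The Nop56 call was lost without mock replicate B (adjusted p = 0.118) and without METTL7A1 replicates D (0.175) or E (0.12), with log2 changes of 0.39 to 0.51. That of Rrp1 was lost without mock replicates B (0.149) or C (0.0998) and without METTL7A1 replicates D (0.0828) or E (0.221), at 0.36 to 0.45, and also with GC offsets (0.36, adjusted p = 0.0565) and with no filter beyond 1 count in total (0.44, adjusted p = 0.0704). Nop16 lost its call without mock replicates B (0.0588) or C (0.143) and without METTL7A1 replicates D (0.127), E (0.0995) or F (0.0966), at -0.45 to -0.34, and with no filter beyond 1 count (-0.41, adjusted p = 0.0971). GC offsets without METTL7A1 replicate D, added after seeing the data, left none of the 3 called. The count of higher members was thus 0 without mock replicate B or METTL7A1 replicates D or E, where 6.49%, 6.65% and 5.15% of all genes were higher, and 1 (1.75%, against 8.79%) without mock replicate C. Without mock replicate A 7 (12.3%, against 10.9%) were higher and 2 (3.51%, against 10%) lower, and 3 (5.26%, against 10.1%) were higher and 0 (against 4.05%) lower with Actb scaling, under which all genes had a median of 0.08. The 2 genotype comparisons have no library in common.

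**Figure D2:**
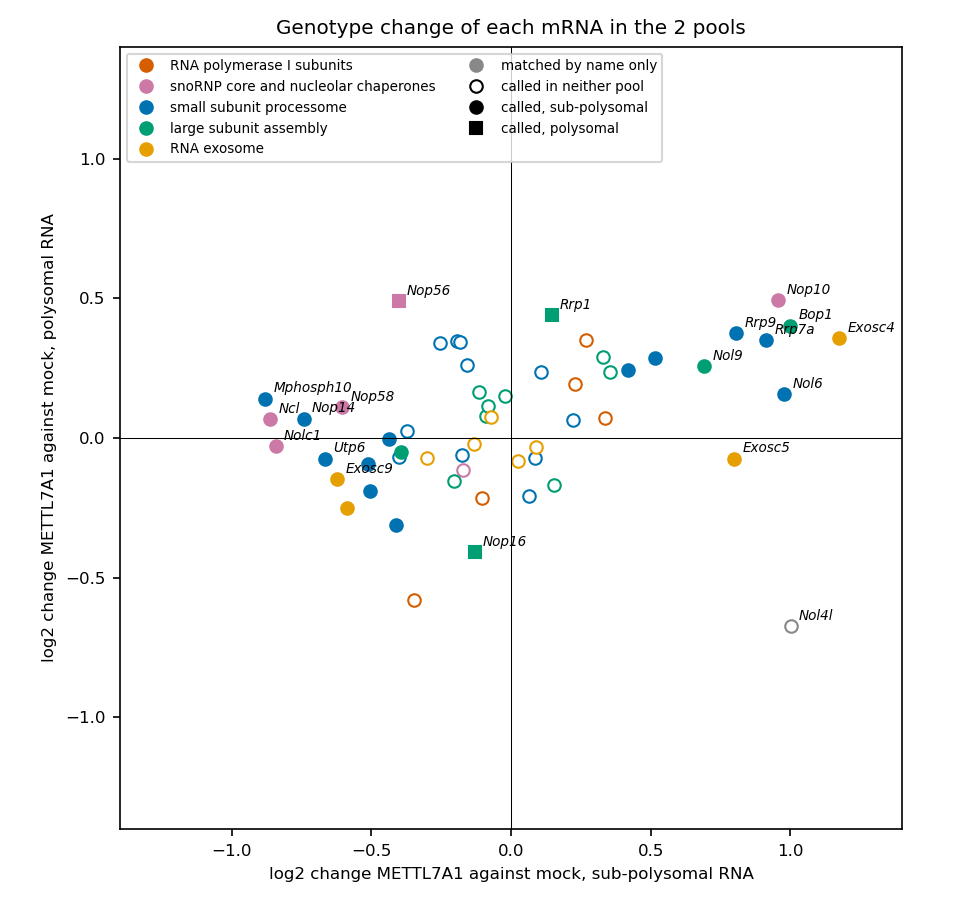
Each point is 1 of the 57 members, coloured by role, with the log2 change of METTL7A1 against mock cells in sub-polysomal RNA on the x axis and in polysomal RNA on the y axis. The points spread from -0.88 to 1.18 along the x axis, and Nop56 and Rrp1 are the only 2 members called higher on the y axis.

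The shift to polysomes is the change between the pools in METTL7A1 cells minus that in mock cells, so the total level of an mRNA in each genotype cancels. With edgeR 0 of 57 members passed an adjusted p of 0.05, as did 0% of all genes. Mphosph10 and Nolc1 had the smallest p-values and missed the threshold. The shift of Mphosph10 was 1.02 (SE 0.23, adjusted p = 0.114), with a 95% interval of 0.542 to 1.499. Nolc1 had a shift of 0.81 (SE 0.19, adjusted p = 0.114), with a 95% interval of 0.4171 to 1.21. At an unadjusted p below 0.05, 12 members (21.1%) had a shift towards polysomes, where 6.68% of all genes did, and 7 (12.3%) away from them, where 8.97% did. The median shift was 0.11 over the members and -0.01 over all genes, and with Actb scaling it was -0.05 and -0.17. With GC offsets it was 0.03 over the members and -0.003 over all genes.

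Other tools differed on the shift. limma-voom called 0 members, as it did 0% of all genes. DESeq2 called 9 members, where it called 2.99% of all genes. Towards polysomes these were Ncl, Nolc1, Nop56, Nop58, Nop14 and Mphosph10, and away from them Nol6, Exosc4 and Exosc5. DESeq2 with GC offsets, which was added after seeing the data, called 4, all towards polysomes (Ncl, Nolc1, Nop56 and Mphosph10), where it called 1.09% of the 12157 genes with a GC content. The edgeR fit with GC offsets called 0. Without mock replicate A edgeR called 3 (5.26%, against 0.908% of all genes), among them Nolc1 (adjusted p = 0.0428).

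RNA polymerase I had 5 subunits among the members, and 1 stood far from the others. Polr1d, a subunit that RNA polymerases I and III share, had 642, 865 and 889 CPM in mock sub-polysomal and 163, 323 and 381 CPM in mock polysomal RNA. In METTL7A1 cells it had 569, 666 and 653 CPM in sub-polysomal and 181, 201 and 199.9 CPM in polysomal RNA. Every polysomal library lay below every sub-polysomal one, and mock replicate A was the lowest of its group in both pools. The log2 change between the pools was -1.47 (SE 0.23, adjusted p = 4.45e-05) in mock and -1.70 (SE 0.23, adjusted p = 5.17e-06) in METTL7A1 cells. The genotypes overlapped in each pool through mock replicate A, with log2 changes of -0.35 (adjusted p = 0.248) in sub-polysomal and -0.58 (0.0803) in polysomal RNA. Without that replicate Polr1d was lower in METTL7A1 cells in the sub-polysomal (-0.50, adjusted p = 0.00719) and the polysomal pool (-0.85, adjusted p = 0.000261). In polysomal RNA it was also lower with GC offsets (-0.60, adjusted p = 0.0445) and with no filter beyond 1 count in total (-0.58, adjusted p = 0.0119). Polr1a, the largest subunit of the enzyme and part of its active site, was higher in polysomes in mock cells, with a log2 change of 0.52 (SE 0.15, adjusted p = 0.01), a call lost without mock replicates B (adjusted p = 0.0568) or C (0.0537) and with Actb scaling (0.0681). In METTL7A1 cells its log2 change of 0.26 did not pass (adjusted p = 0.141). Polr1b, Polr1c and Polr1e were not called in any of the 5 comparisons of the main fit. Without mock replicate A Polr1c was lower in polysomes in mock (adjusted p = 0.0399) and in METTL7A1 cells (0.0354), and in the latter also with DESeq2 (0.0447), Actb scaling (0.00662), at least 10 counts in every library (0.0426) and only the compared groups (0.0479). Polr1b was higher in METTL7A1 polysomal RNA with GC offsets (0.37, adjusted p = 0.0291). With Actb scaling Polr1a (adjusted p = 0.0254), Polr1b (0.0314) and Polr1e (0.0336) were higher in METTL7A1 sub-polysomal RNA.

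The proteins of the snoRNPs and their nucleolar chaperones made up 6 members. In METTL7A1 cells 4 of the 6 (66.7%, against 30.0% of all genes) were higher in polysomes and 1 (16.7%, against 29.3%) lower. In mock cells these were 2 (33.3%, against 23.3%) and 1 (16.7%, against 23.7%). With Actb scaling 0 (against 17%) were higher and 1 (16.7%, against 23.5%) lower in mock cells. In METTL7A1 cells that scaling gave 4 (66.7%, against 17.5%) higher and 1 (16.7%, against 34.6%) lower. In sub-polysomal RNA 3 of the 6 (50%, against 14.5%) were lower in METTL7A1 cells and 1 (16.7%, against 16.9%) higher. GC offsets gave the same counts, with Fbl in place of Nop58, where 12.2% of all genes were lower and 13.3% higher. Actb scaling gave 2 (33.3%, against 5.46%) lower and 1 (16.7%, against 26.9%) higher. Ncl encodes nucleolin, an abundant nucleolar protein that binds the ribosomal RNA precursor. Its level was 1171, 785 and 789 CPM in mock sub-polysomal and 1639.8, 1321 and 1314 CPM in mock polysomal RNA. METTL7A1 cells had 529.9, 508 and 469 CPM in sub-polysomal and 1618, 1509.5 and 1349.5 CPM in polysomal RNA. The METTL7A1 sub-polysomal libraries lay below all mock ones, at 502 ± 31.00 against 915 ± 222 CPM (SD, n = 3), while the polysomal libraries of the genotypes overlapped. The log2 change between the pools was 0.64 (SE 0.18, adjusted p = 0.00617) in mock and 1.57 (SE 0.18, adjusted p = 9.43e-07) in METTL7A1 cells. Between the genotypes it was -0.86 (SE 0.18, adjusted p = 0.00133) in sub-polysomal and 0.07 (adjusted p = 0.837) in polysomal RNA. With Actb scaling the adjusted p of Ncl between the mock pools was 0.0518.

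Nolc1, a phosphoprotein that accompanies snoRNPs through the nucleolus and Cajal bodies, had a like pattern. Its mRNA stood at 249, 236 and 226 CPM in mock sub-polysomal and 333, 292 and 317 CPM in mock polysomal RNA, and at 133, 142 and 121 CPM and 322, 326 and 275 CPM in the same pools of METTL7A1 cells. The METTL7A1 sub-polysomal libraries were again below all others. Between the pools the log2 change was 0.41 (SE 0.13, adjusted p = 0.0172) in mock and 1.22 (SE 0.14, adjusted p = 6.72e-07) in METTL7A1 cells, and the mock call was lost without mock replicate C (adjusted p = 0.113), with Actb scaling (0.127) and when only the compared groups were fitted (0.0617). In sub-polysomal RNA the genotypes differed by -0.84 (SE 0.14, adjusted p = 0.000182), and with GC offsets by -0.83 (adjusted p = 9.15e-05).

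Nop56, Nop58 and Fbl are core proteins of the box C/D snoRNPs, in which Fbl, fibrillarin, is the enzyme that methylates the ribose. Nop56 had 388, 471 and 492 CPM in mock sub-polysomal and 405, 422 and 501 CPM in mock polysomal RNA, and 367, 352 and 304 CPM and 710.3, 609 and 547 CPM in those of METTL7A1 cells. The mock pools overlapped, and in METTL7A1 cells every polysomal library was above every sub-polysomal one. Its log2 change between the pools was -0.03 in mock (adjusted p = 0.903) and 0.87 (SE 0.16, adjusted p = 0.000121) in METTL7A1 cells. Between the genotypes it was 0.49 (SE 0.16, adjusted p = 0.0345) in polysomal RNA, and -0.40 (SE 0.16, adjusted p = 0.0581) in sub-polysomal RNA did not pass, though it did with DESeq2 (adjusted p = 0.0182), with limma-voom (0.0444), without mock replicate A (0.00935) and in 3 further fits. With GC offsets it was -0.32 (adjusted p = 0.107). In METTL7A1 cells Nop58 was higher in polysomes, with a log2 change of 1.02 (SE 0.16, adjusted p = 2.245e-05), and lower in METTL7A1 than in mock sub-polysomal RNA, with -0.61 (SE 0.16, adjusted p = 0.007115). The latter call was lost without METTL7A1 replicate E (adjusted p = 0.0545), with GC offsets (0.122) and with Actb scaling (0.161). Fbl ranged from 101 to 163 CPM over the 12 libraries and was not called in any of the 5 comparisons. With GC offsets Fbl was higher in polysomes in METTL7A1 cells (0.51, adjusted p = 0.00622) and lower in METTL7A1 than in mock sub-polysomal RNA (-0.57, adjusted p = 0.00999).

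Nop10, a core protein of the box H/ACA snoRNPs that guide pseudouridylation, was the shortest coding sequence of the 57 and among the most depleted from polysomes. Its whole coding sequence of 195 bases (64 codons and the stop codon) is shown because length went with the change between the pools across the members. It lies in 2 coding exons on the plus strand of GRCm38 (chr2:112262024-112262450), with the start and stop codons in capitals.
Nop10: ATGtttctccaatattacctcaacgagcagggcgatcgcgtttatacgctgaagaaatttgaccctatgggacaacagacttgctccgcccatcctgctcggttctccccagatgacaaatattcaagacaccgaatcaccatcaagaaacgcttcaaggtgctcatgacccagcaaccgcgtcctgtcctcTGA
The mRNA stood at 113, 201 and 207 CPM in mock sub-polysomal and 38.2, 82.5 and 83.9 CPM in mock polysomal RNA. METTL7A1 cells had 308, 345 and 365 CPM in sub-polysomal and 94.00, 95.3 and 99.1 CPM in polysomal RNA. Mock replicate A was low in both pools, and the METTL7A1 sub-polysomal libraries were above all others. The log2 change between the pools was -1.36 (SE 0.24, adjusted p = 0.000169) in mock and -1.82 (SE 0.24, adjusted p = 4.28e-06) in METTL7A1 cells. Between the genotypes it was 0.96 (SE 0.24, adjusted p = 0.00493) in sub-polysomal RNA and 0.49 (adjusted p = 0.163) in polysomal RNA, where it passed with no filter beyond 1 count in total (0.0333). With GC offsets the sub-polysomal change was 1.19 (adjusted p = 0.00148).

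**Figure D3:**
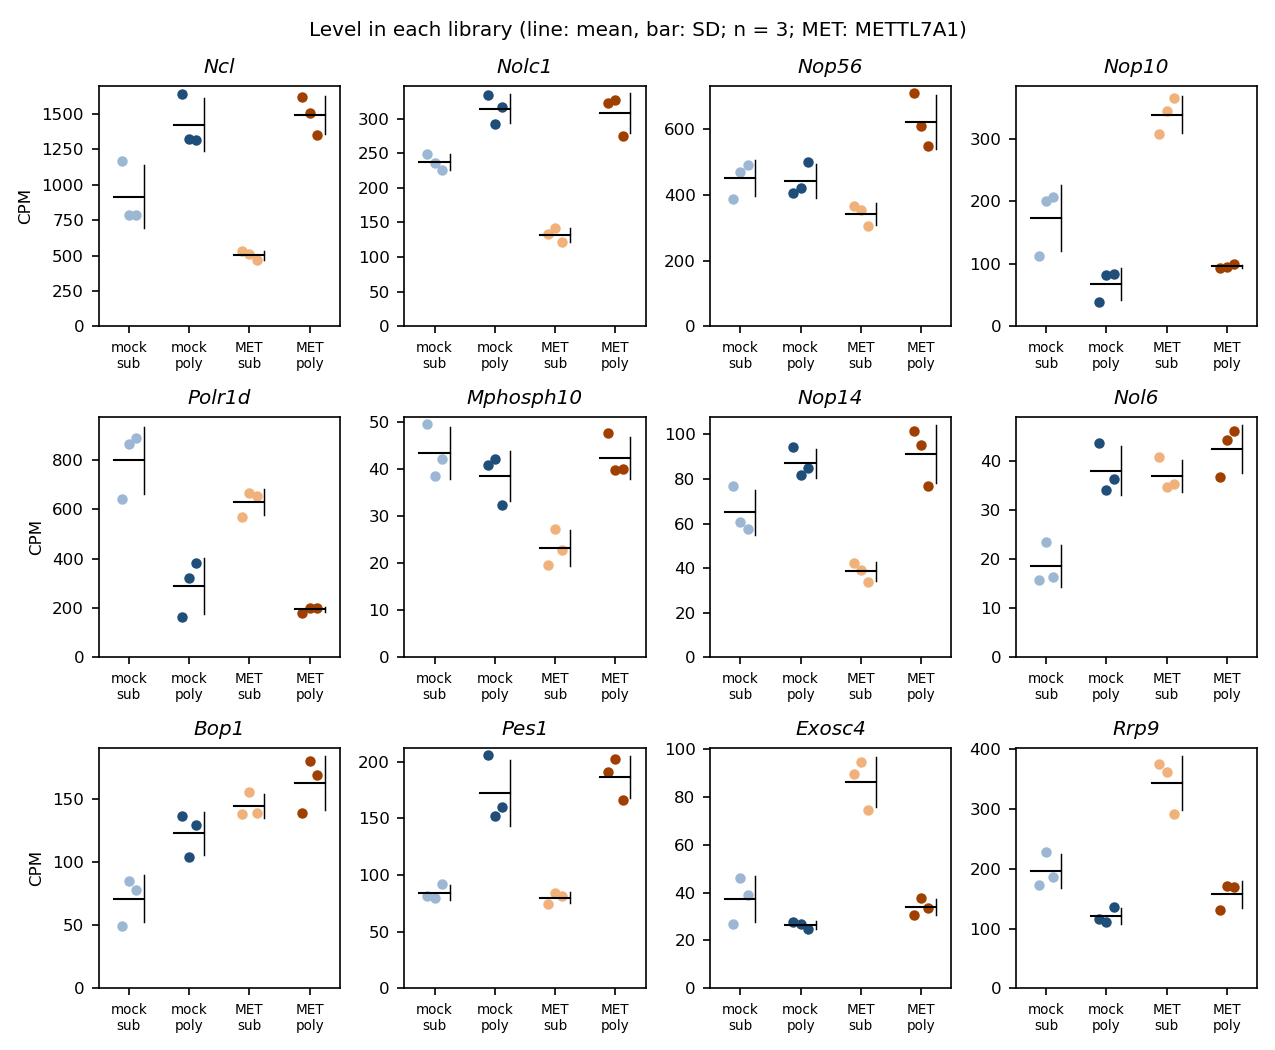
CPM in each of the 12 libraries (points) with the mean and SD of each group of 3 are drawn for 12 members. Ncl, Nolc1, Mphosph10 and Nop14 are lowest in METTL7A1 sub-polysomal RNA, where Exosc4, Rrp9 and Nop10 are highest.

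The small subunit processome was the largest role group, with 23 members. In mock cells 10 of the 23 (43.5%, against 23.3% of all genes) were higher in polysomes and 2 (8.7%, against 23.7%) lower. In METTL7A1 cells these were 13 (56.5%, against 30.0%) and 2 (8.7%, against 29.3%). Their median log2 change was 0.26 in mock and 0.57 in METTL7A1 cells. With Actb scaling 6 (26.1%, against 17%) were higher and 2 (8.7%, against 23.5%) lower in mock cells, with a median of 0.18. In METTL7A1 cells that scaling gave 9 (39.1%, against 17.5%) higher and 6 (26.1%, against 34.6%) lower, with a median of 0.33. DESeq2 called 12 of the 23 higher and 4 lower there, against 26.5% and 29.5% of all genes. In sub-polysomal RNA METTL7A1 cells had 5 (21.7%, against 16.9%) higher and 7 (30.4%, against 14.5%) lower. With GC offsets 3 (13%, against 13.3%) were higher, namely Nol6, Rrp7a and Nol11, the last of which was not called in the main fit. Lower were then 3 (13%, against 12.2%), namely Mphosph10, Nop14 and Utp3. Actb scaling gave 6 (26.1%, against 26.9%) higher and only Mphosph10 (4.35%, against 5.46%) lower. In polysomal RNA edgeR called 0 of the 23, against 9.69% of all genes higher and 8.28% lower. At an unadjusted p below 0.05, 3 (13%, against 16.1%) were higher and 1 (4.35%, against 15.1%) lower. DESeq2 called 0, against 9.31% of all genes higher and 7.98% lower. limma-voom called 1 higher, against 10.3%, and 0 lower, against 8.35%. Among the largest rises in METTL7A1 cells were those of Utp6 and Utp20, scaffold proteins of the processome. The log2 change of Utp6 between the pools was 0.74 (SE 0.18, adjusted p = 0.00239) in mock and 1.33 (SE 0.18, adjusted p = 6.21e-06) in METTL7A1 cells. For Utp20, at 2789 codons the longest of the 57, it was 0.70 (SE 0.20, adjusted p = 0.006925) and 1.30 (SE 0.19, adjusted p = 1.64e-05), and the mock call was lost without mock replicate C (adjusted p = 0.115).

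Mphosph10, which binds Imp3 and Imp4 in the U3 snoRNP, changed between the genotypes in the sub-polysomal pool. Its coding sequence lies in 11 coding exons on the minus strand of GRCm38 (chr7:64376658-64392194), and its GC content of 42.5% is low among the members. The first 120 bases are shown with G and C in capitals (51.7% of them), since base composition went with the change between the genotypes across the members. This stretch holds more G and C than the whole coding sequence and lies near the median of the members (52.76%), so it does not show the low content.
Mphosph10: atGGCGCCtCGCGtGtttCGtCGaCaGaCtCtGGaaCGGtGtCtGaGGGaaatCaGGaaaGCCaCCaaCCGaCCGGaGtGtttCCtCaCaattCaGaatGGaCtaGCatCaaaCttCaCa
It had 49.6, 38.7 and 42.2 CPM in mock sub-polysomal and 40.9, 42.3 and 32.5 CPM in mock polysomal RNA. METTL7A1 cells had 19.5, 27.3 and 22.9 CPM in sub-polysomal and 47.6, 39.8 and 40.04 CPM in polysomal RNA. The METTL7A1 sub-polysomal libraries lay below the other 9, which overlapped. The log2 change between the genotypes was -0.88 (SE 0.17, adjusted p = 0.000845) in sub-polysomal RNA, and -0.63 (adjusted p = 0.0038) with GC offsets. Between the pools it was -0.16 in mock (adjusted p = 0.425) and 0.86 (SE 0.16, adjusted p = 0.0001995) in METTL7A1 cells. Its partners did not move alike. Imp3 was higher in METTL7A1 sub-polysomal RNA, with a log2 change of 0.52 (SE 0.15, adjusted p = 0.0116), a call lost with GC offsets (0.19, adjusted p = 0.349) and without mock replicate C (adjusted p = 0.0801) or METTL7A1 replicates D (0.0536) or E (0.0717). Imp4 was not called in any of the 5 comparisons, though with GC offsets it was lower in polysomes in METTL7A1 cells (-0.34, adjusted p = 0.0261), as with Actb scaling (adjusted p = 0.048).

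Other processome members moved in either direction. Nop14 had 76.7, 60.7 and 57.6 CPM in mock sub-polysomal and 94.4, 81.8 and 85.02 CPM in mock polysomal RNA, and 42.4, 39.2 and 33.9 CPM and 102, 95.4 and 76.7 CPM in those of METTL7A1 cells. In both genotypes its polysomal libraries were above its sub-polysomal ones, with log2 changes of 0.44 (SE 0.15, adjusted p = 0.0229) in mock and 1.25 (SE 0.15, adjusted p = 2.08e-06) in METTL7A1 cells. The mock call was lost without mock replicates B (adjusted p = 0.0804) or C (0.133), with Actb scaling (0.138) and when only the compared groups were fitted (0.0517). In sub-polysomal RNA it was lower in METTL7A1 cells, at a log2 change of -0.74 (SE 0.16, adjusted p = 0.00188), which with Actb scaling was -0.49 (adjusted p = 0.0549). Nol6, a processome protein that also binds pre-ribosomal RNA, had 15.8, 23.6 and 16.4 CPM in mock sub-polysomal and 43.6, 34.05 and 36.3 CPM in mock polysomal RNA, and 40.7, 34.7 and 35.3 CPM and 36.8, 44.2 and 46.1 CPM in those of METTL7A1 cells. The mock sub-polysomal libraries were the low ones, and the other groups overlapped. Its log2 change between the pools was 1.02 (SE 0.18, adjusted p = 0.00012) in mock and 0.20 (adjusted p = 0.286) in METTL7A1 cells, and between the genotypes 0.98 (SE 0.18, adjusted p = 0.000558) in sub-polysomal RNA. With GC offsets the last was 0.59 (adjusted p = 0.0144), and the change between the METTL7A1 pools was 0.60 and passed (adjusted p = 0.00152).

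Rrp9, the U3-specific protein of the processome, was lower in polysomes in both genotypes. It had 174, 228 and 186 CPM in mock sub-polysomal and 116, 112 and 137 CPM in mock polysomal RNA, and 375, 363 and 292 CPM and 132, 171 and 169.6 CPM in those of METTL7A1 cells. The METTL7A1 sub-polysomal libraries stood above all others. Between the pools the log2 change was -0.69 (SE 0.16, adjusted p = 0.001545) in mock and -1.12 (SE 0.16, adjusted p = 8.25e-06) in METTL7A1 cells. With GC offsets these changes were -0.49 (adjusted p = 0.00151) and -0.48 (adjusted p = 0.00113). In sub-polysomal RNA the genotypes differed by 0.81 (SE 0.16, adjusted p = 0.000874), but with GC offsets the change was 0.25 (adjusted p = 0.111).

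Large subunit assembly factors numbered 13. In mock cells 6 of the 13 (46.2%, against 23.3% of all genes) were higher in polysomes and 3 (23.1%, against 23.7%) lower. In METTL7A1 cells these were 6 (46.2%, against 30.0%) and 2 (15.4%, against 29.3%). With Actb scaling 4 (30.8%, against 17.5%) were higher and 4 (30.8%, against 34.6%) lower in METTL7A1 cells. The median log2 change there was then -0.07, where the main fit had 0.17. Bop1 and Pes1 encode partners in 1 complex that is needed for large subunit maturation. Bop1 had 49.6, 84.9 and 78.1 CPM in mock sub-polysomal and 136, 104 and 129 CPM in mock polysomal RNA, and 138, 155 and 139 CPM and 139, 179.6 and 169 CPM in those of METTL7A1 cells. The METTL7A1 pools overlapped, and the mock sub-polysomal libraries were below all others. Its log2 change between the pools was 0.77 (SE 0.17, adjusted p = 0.00136) in mock and 0.17 (adjusted p = 0.387) in METTL7A1 cells. Between the genotypes it was 1.00 (SE 0.18, adjusted p = 0.000354) in sub-polysomal RNA, and 0.53 (adjusted p = 0.0138) with GC offsets. The offsets also brought the change between the METTL7A1 pools to 0.66 (adjusted p = 0.000626).

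Pes1 differed between the pools in both genotypes. It had 81.2, 79.8 and 92.5 CPM in mock sub-polysomal and 206, 152 and 160.0 CPM in mock polysomal RNA, and 74.5, 84.04 and 81.2 CPM and 191, 203 and 166 CPM in those of METTL7A1 cells. In each genotype the pools were apart, while in each pool the genotypes overlapped. Its log2 change between the pools was 1.02 (SE 0.15, adjusted p = 2.055e-05) in mock and 1.22 (SE 0.15, adjusted p = 1.37e-06) in METTL7A1 cells, and between the genotypes -0.08 (adjusted p = 0.707) in sub-polysomal RNA. The shift of Bop1 was -0.60 (adjusted p = 0.241) and that of Pes1 0.20 (adjusted p = 0.68).

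Rrp1, a nucleolar protein of large subunit precursors, had 251, 214 and 227 CPM in mock and 308, 345 and 286 CPM in METTL7A1 polysomal RNA. Its sub-polysomal levels were 143, 129.5 and 119 CPM in mock and 166, 146 and 121 CPM in METTL7A1 cells. The polysomal libraries did not overlap between the genotypes, and the sub-polysomal ones did. Its log2 change between the pools was 0.83 (SE 0.15, adjusted p = 0.000181) in mock and 1.12 (SE 0.15, adjusted p = 3.98e-06) in METTL7A1 cells, and between the genotypes 0.44 (SE 0.14, adjusted p = 0.0402) in polysomal RNA, a call lost in the fits given above. Nop16, another large subunit factor, had 196, 194 and 223 CPM in mock and 147, 162 and 153 CPM in METTL7A1 polysomal RNA. It was lower in METTL7A1 cells, with -0.41 (SE 0.13, adjusted p = 0.03215), a call lost in the fits given above and with Actb scaling (adjusted p = 0.222). Nol12, with 217 codons, was lower in polysomes, with log2 changes of -0.80 (SE 0.18, adjusted p = 0.00159) in mock and -1.12 (SE 0.18, adjusted p = 4.5e-05) in METTL7A1 cells. Rrs1, which helps place the 5S RNA in the large subunit, was higher in polysomes in METTL7A1 cells, with 0.55 (SE 0.14, adjusted p = 0.00223), though not with Actb scaling (0.30, adjusted p = 0.131), and not called in mock cells (0.27, adjusted p = 0.115).

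The RNA exosome has a ring and a cap of subunits through which RNA is threaded, and 9 of its genes were tested. In mock cells 1 of the 9 (11.1%, against 23.3% of all genes) was higher in polysomes and 2 (22.2%, against 23.7%) were lower. In METTL7A1 cells these were 2 (22.2%, against 30.0%) and 3 (33.3%, against 29.3%). With GC offsets 4 (44.4%) were lower in each genotype, against 24.9% of all genes in mock and 27.8% in METTL7A1 cells. Actb scaling gave 3 (33.3%) lower in each, against 23.5% and 34.6%. Exosc4, a ring subunit, has a coding sequence of 63.3% GC and moved the other way from Mphosph10 in the sub-polysomal pool. It had 27.1, 45.9 and 39.03 CPM in mock sub-polysomal and 27.8, 27.05 and 24.7 CPM in mock polysomal RNA. METTL7A1 cells had 89.4, 94.7 and 74.3 CPM in sub-polysomal and 30.6, 37.6 and 33.6 CPM in polysomal RNA. The METTL7A1 sub-polysomal libraries were above the other 9, with 86.1 ± 10.6 against 37.3 ± 9.54 CPM in mock (SD, n = 3). The genotypes differed there by 1.18 (SE 0.17, adjusted p = 6.2e-05), the largest rise among the members, and by 0.92 (adjusted p = 0.000194) with GC offsets. Between the pools the log2 change was -0.52 (SE 0.17, adjusted p = 0.0177) in mock and -1.34 (SE 0.16, adjusted p = 1.665e-06) in METTL7A1 cells, and the mock call was lost without mock replicates B (adjusted p = 0.159) or C (0.108).

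Subunits of the same complex did not move together. Exosc1, a cap subunit, was lower in polysomes in both genotypes, with 129, 151 and 147 CPM in mock sub-polysomal and 60.6, 80.6 and 70.4 CPM in mock polysomal RNA. In METTL7A1 cells it had 136, 160.1 and 159 CPM and 58.2, 71.8 and 76.9 CPM in those pools. The pools did not overlap in either genotype, and the log2 changes were -1.02 (SE 0.15, adjusted p = 2.285e-05) and -1.14 (SE 0.15, adjusted p = 3.04e-06). Exosc9, a ring subunit, went the other way, with log2 changes of 0.66 (SE 0.15, adjusted p = 0.0015) in mock and 1.14 (SE 0.15, adjusted p = 5.305e-06) in METTL7A1 cells. In sub-polysomal RNA Exosc9 was lower in METTL7A1 cells, at a log2 change of -0.62 (SE 0.16, adjusted p = 0.00644), and Exosc5, also of the ring, was higher, at 0.80 (SE 0.18, adjusted p = 0.00234), or 0.52 (adjusted p = 0.0124) with GC offsets. The Exosc9 call was lost without METTL7A1 replicate E (adjusted p = 0.0509), with GC offsets (0.103) and with Actb scaling (0.132). Exosc2 ranged from 106 to 136 CPM over the 12 libraries and was not called in any of the 5 comparisons. Nol4l, which matched by name only, was at 0.564 to 2.23 CPM and was not called either.

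Features of the coding sequence went along with these differences. Across the 57 members the Spearman correlation of coding length with the log2 change between the pools was 0.674 in mock and 0.609 in METTL7A1 cells. Over the 10845 coding genes tested it was 0.546 and 0.538, so the relation is not particular to the factors. The mock members higher in polysomes had 438 to 2789 codons (median 704.5) and those lower 64 to 475 (median 245). These are correlations across genes of the same libraries, and genes are not independent replicates.

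GC content went with the difference between the genotypes in sub-polysomal RNA. The Spearman correlation of the log2 change with the GC content of the coding sequence was 0.687 across the members and 0.428 across all coding genes. With the GC content of the third codon position it was 0.742 across the 57 members and 0.393 across 10832 genes. The members that were higher in METTL7A1 sub-polysomal RNA had a coding GC content of 49.74% to 63.28% (median 58.33%), and those that were lower one of 40.45% to 54.24% (median 46.6%). The third codon position was G or C in 70.3% of the codons of Exosc4 and in 42.96% of those of Mphosph10. Nop10, with 49.7% GC, was higher, and Rrs1, with 64.1%, had a log2 change of -0.11 (adjusted p = 0.577), so both lay away from the trend. For the shift to polysomes the correlation with coding GC content was -0.666 across the members and -0.458 across all coding genes. Between the METTL7A1 pools it was -0.547 across the members and -0.333 across all coding genes. The values between the mock pools were -0.148 and -0.123. These points share the 12 libraries, whose own trends with GC content differ between the groups as given above.

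GC offsets kept part of the calls in sub-polysomal RNA. With them 8 members (14%) were higher in METTL7A1 cells, against 13.3% of 12157 genes, and 9 (15.8%) were lower, against 12.2%. Bop1, Exosc4, Exosc5, Nol6, Nol9, Nop10 and Rrp7a were higher in both fits, 7 of the 10 called without offsets. Exosc7, Mphosph10, Ncl, Nolc1, Nop14, Rrp8 and Utp3 were lower in both, 7 of the 13. The share of calls kept over all genes was not counted, so these overlaps have no background to be set against. Exosc8, Fbl and Nol11 were called with the offsets but not in the main fit, and Exosc8 also with DESeq2 (adjusted p = 0.03875), with at least 10 counts in every library (0.0485) and without mock replicate A (0.0268). In sub-polysomal RNA the calls of Rrp8 and Utp3 were lost in 9 and 5 other fits. The log2 change of Ncl was then -0.59 (adjusted p = 0.0142) and that of Nop14 -0.55 (adjusted p = 0.00984). The correlation with coding GC content across the members was 0.391 after the offsets. The source of the trend was not tested.

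**Figure D4:**
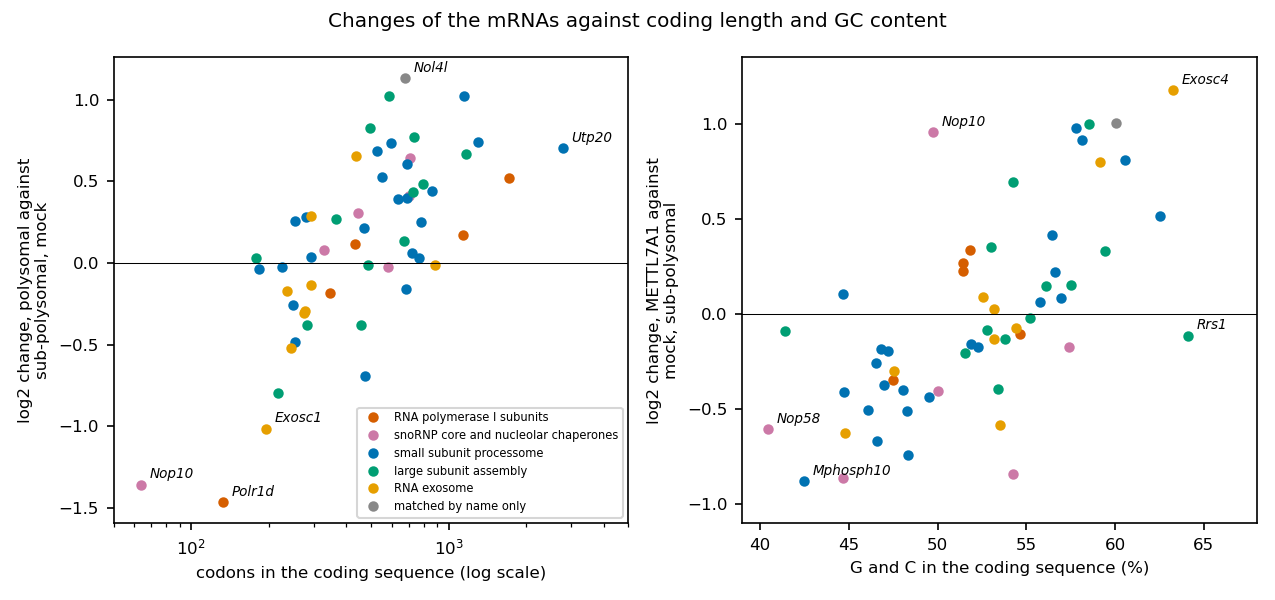
Left, the log2 change of polysomal over sub-polysomal RNA in mock cells against the number of codons (log scale), for the 57 members. Right, the log2 change of METTL7A1 against mock cells in sub-polysomal RNA against the GC content of the coding sequence in percent. Nop10, with 64 codons, lies at the lower left of the left panel and Exosc4, with 63.3% GC, at the upper right of the right panel.

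Counts of some members may be shared with neighbouring genes, since the strand setting of the counting is not stated. Exons of 18 of the 57 tested members overlap those of a gene on the opposite strand, by 5 to 860 bases. The longest overlaps are those of Nop9 (860 bases with Cideb), Rrp7a (598), Utp14a (473), Nol11 (437), Exosc9 (378), Utp23 (345) and Rrp8 (319). Shorter overlaps are those of Imp4 (209), Nol7 (187), Polr1a (185), Exosc5 (150), Nop14 (144), Pes1 (138), Exosc8 (85), Exosc2 (54), Rrp1b (54), Bop1 (50) and Nop56 (5). On the same strand Utp14b shares 206 bases with Acsl3. How far these overlaps enter the counts was not tested. Exosc6 had 0 counts in all 12 libraries, and all of its 1326 exon bases are shared with Aars on the same strand, so no level can be given for it. Nol4 also had 0 counts, and Nol3 had 6 in all.

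Other genes of the pathway, outside the naming rule, gave a like picture between the pools. Of 83 related factors such as assembly GTPases, RNA helicases and transcription factors of RNA polymerase I, 82 were tested. In mock cells 25 of the 82 (30.5%, against 23.3% of all genes) were higher in polysomes and 10 (12.2%, against 23.7%) lower, with a median log2 change of 0.18. In METTL7A1 cells 44 (53.7%, against 30.0%) were higher and 16 (19.5%, against 29.3%) lower, with a median of 0.42. Actb scaling gave 29 (35.4%, against 17.5%) higher and 18 (22%, against 34.6%) lower in METTL7A1 cells, with a median of 0.17. In mock cells it gave 18 (22%, against 17%) higher and 10 (12.2%, against 23.5%) lower, with a median of 0.10. Between the genotypes 13 (15.9%, against 16.9%) were higher and 19 (23.2%, against 14.5%) lower in METTL7A1 sub-polysomal RNA. With GC offsets these were 13 (15.9%, against 13.3%) and 20 (24.4%, against 12.2%), and with Actb scaling 18 (22%, against 26.9%) and 7 (8.54%, against 5.46%). In polysomal RNA 5 (6.1%, against 9.69%) were higher and 4 (4.88%, against 8.28%) lower in METTL7A1 cells. GC offsets gave 9 (11%, against 12%) higher and 3 (3.66%, against 9.95%) lower there. Actb scaling gave 6 (7.32%, against 10.1%) higher and 0 (against 4.05%) lower. For the shift edgeR called 0, with 15 (18.3%, against 6.68%) towards and 5 (6.1%, against 8.97%) away from polysomes at an unadjusted p below 0.05 and a median of 0.19. DESeq2 called 3 of the 82 towards and 3 away, against 1.25% and 1.74% of all genes. limma-voom called 0, against 0% of all genes.

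Among these related genes, 4 had been set for naming. Npm1, which encodes the abundant nucleolar chaperone nucleophosmin, had a log2 change between the pools of 0.51 (SE 0.18, adjusted p = 0.0261) in mock and 0.72 (SE 0.18, adjusted p = 0.00205) in METTL7A1 cells. Ubtf, a transcription factor of RNA polymerase I, rose in polysomes by 0.78 (SE 0.16, adjusted p = 0.000494) in mock and 0.99 (SE 0.16, adjusted p = 2.89e-05) in METTL7A1 cells. Dkc1, the pseudouridine synthase that works with Nop10, had 169, 178 and 182 CPM in mock and 109.6, 101 and 107 CPM in METTL7A1 sub-polysomal RNA. These did not overlap, and Dkc1 was lower in METTL7A1 cells, at a log2 change of -0.74 (SE 0.13, adjusted p = 0.000316), where Nop10 was higher. This was -0.47 (adjusted p = 0.0123) with GC offsets. Its log2 change between the pools was -0.21 (adjusted p = 0.172) in mock and 0.41 (SE 0.13, adjusted p = 0.00872) in METTL7A1 cells. Myc was at 127 to 214 CPM in the 12 libraries and was not called in any of the 5 comparisons of the main fit, but with GC offsets it was higher in polysomes in METTL7A1 cells (0.76, adjusted p = 0.000111) and lower in METTL7A1 than in mock sub-polysomal RNA (-0.42, adjusted p = 0.0311). With the offsets Ubtf was lower there too (-0.55, adjusted p = 0.02). The calls of Npm1 between the pools were lost with Actb scaling (adjusted p = 0.138 in mock and 0.058 in METTL7A1 cells).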

How the data were processed

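RNA of the sub-polysomal and polysomal pools was measured in 12 libraries. The deposited unit is the read count of each gene, obtained by the authors with STAR 2.5.3a on mm10 and featureCounts. Counts were fitted with edgeR 4.0.16 in R 4.3.3 (TMM factors, 1 mean per group, quasi-likelihood test, Benjamini-Hochberg over 12224 genes) at 2 call rules. The members and lists were chosen with earlier results of these data known. Named were members listed by symbol, the highest mean CPM of each role, the 4 largest called rises and falls of each comparison with a mean of at least 5 CPM, strict calls, for a comparison without calls the 2 smallest p, and 4 related genes. Nop58, Polr1a, Exosc5, Exosc9 and members in lists were named after their values were seen. Alternatives were DESeq2 1.42.0, limma-voom (limma 3.58.1), RLE factors, Actb scaling, 2 filters, only the compared groups, a replicate block, GC offsets (lowess, span 0.3) and leaving out each replicate. Coding sequences and exons came from the GENCODE annotation of GRCm38. Tests were tried on simulated data. Figures used matplotlib 3.10.9 in Python 3.11.15.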

Additional observations from a re-analysis of the deposited data

How the results depend on the processing

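Of 40 results for named members, 29 had the same sign and the same side of the threshold under each of the 17 alternatives that applied, of which 6 left out 1 replicate and 2 were chosen after seeing the data, and none changed sign while called. Apart from those for the shift, these 40 were picked as calls in the same libraries, many for their size. The 29 therefore do not stand for the other calls, such as that of Rrp1b given above. Scaling to the Actb count moved the most counts. It gave 12 members higher between the mock pools (median log2 change 0.0911), 16 lower between the METTL7A1 pools (median -0.0396), 0 lower between genotypes in the polysomal pool (median 0.17), 16 higher with 3 lower in the sub-polysomal pool (median 0.17) and a median shift of -0.0493. With DESeq2, 14 (24.6%, against 29.5% of all genes) were lower between the METTL7A1 pools, and 9 (against 2.99%) were called for the shift. With at least 10 counts in every library 14 of 55 (25.5%, against 31.7%) were lower between the METTL7A1 pools. With no filter beyond 1 count in total, 1 member (1.75%, against 0.253% of all genes) was called towards polysomes. Away from them 1 (1.75%, against 0.453%) was called. GC offsets gave medians of 0.32 between the METTL7A1 pools, -0.00897 in sub-polysomal RNA and 0.0308 for the shift. With them 2 members (3.51%, against 9.95% of all genes) were lower in polysomal RNA. Chosen after seeing the data were these offsets without METTL7A1 replicate D and DESeq2 with them. Without replicate D the offsets gave a median of 0.30 between the METTL7A1 pools. In the polysomal pool 1 (1.75%, against 8.08% of all genes) was then higher and 0 (against 6.23%) lower. In the sub-polysomal pool 6 (10.5%, against 9.94%) were higher and 6 (10.5%, against 8.82%) lower (median 0.0296). DESeq2 with offsets called 4 (7.02%, against 1.09% of all genes) for the shift. Leaving out 1 replicate gave 11 to 20 higher between the mock pools, 7 to 14 lower between the METTL7A1 pools, 0 to 7 higher with 0 to 2 lower in the polysomal pool (median 0.0266 to 0.15), 6 to 16 lower in sub-polysomal RNA and 0 to 3 for the shift. The extremes were 11 without mock replicate C, 14, 7, 2, 16 and 3 without mock replicate A, and 6 without METTL7A1 replicate E. The 16 were 28.1% of the members, against 14.2% of all genes, and the shares of the other extremes are given above. Except where fewer samples or another scale enter by construction, the cause was not tested. The labels do not say whether the pools of a letter share a gradient. Across genes, deviations of same-letter libraries from their group means correlated at 0.1074, -0.1083 and -0.2918 (A, B, C) and 0.03766, 0.0189 and 0.04512 (D, E, F). Mock sub-polysomal B with polysomal C gave 0.334 and C with B 0.2313, and a pairing with these 2 letters exchanged was not tested. With the letter as a block, 20 members (35.1%, against 21.9% of all genes) were higher between the mock pools, a count of 20 as without it. Between the METTL7A1 pools 24 (42.1%, against 29.2%) were higher, and the call of Rrp1b was lost (adjusted p = 0.0723). Depth limits the low members most, since 3 counts are up to 1.69 CPM.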
